A study of Mus musculus with 6 samples.

Results

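The step from day 10 to day 12 of reprogramming was examined on the autosomes of mouse cells, with 1 ATAC-seq library at each time point. ATAC-seq counts the reads that a transposase releases from open chromatin, so a region with more reads is more accessible. All 218231 regions on chromosomes 1 to 19 were compared, of 223596 regions in the table. A region was said to open or to close by the difference between its log2 normalised counts at day 12 and at day 10. The same difference between day 9 and day 10 served as the yardstick, because it is the change between neighbouring intermediates that holds no day 12 library. The step spans 2 days and the yardstick 1 day.

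All libraries came from female hybrid cells of *Mus musculus* mothers with an X-linked GFP reporter and Castaneus fathers. MEFs (embryonic fibroblasts) were transduced with lentiviruses carrying tetO-FUW-OSKM and FUW-M2rtTA, which encode the inducible factors Oct4, Sox2, Klf4 and c-Myc and the doxycycline-dependent activator. Cells whose GFP-bearing X was silent were then selected by sorting. The MEF day 0 library was taken at that sort, from transduced cells without doxycycline. The libraries of days 8, 9, 10 and 12 were made from SSEA1+ (FUT4+) cells kept in doxycycline and ascorbic acid. The iPSC library came from picked colonies, with both withdrawn after picking. The protocol does not say how many cultures or colonies entered a library, and each library is a pool of many cells. In such bulk libraries a region that is open in more cells and a region that is more open in each cell cannot be told apart.

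In reprogramming of this kind, fibroblast enhancers lose accessibility early, and the transcription factors bind many sites that are open neither in fibroblasts nor in pluripotent cells. Sites of the pluripotency network open later and stepwise, while the transient sites close. SSEA1 is a surface carbohydrate that mouse pluripotent cells carry, and it marks intermediates that are on the way to pluripotency. The position of day 12 between day 10 and iPSC is therefore read here from 3 other libraries, MEF day 0, day 8 and iPSC, which neither the day 10 to day 12 difference nor the yardstick uses.

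The libraries held 22067333 to 32844411 reads in regions, with 30588582 at day 10 and 24464545 at day 12. The median autosomal region had 52 reads at day 10 and 47 at day 12, but 20 in MEF day 0 and 33 in iPSC. The size factors by which the authors divided the reads were 1.27 at day 10 and 1.11 at day 12, against 0.498 in MEF day 0 and 0.798 in iPSC. With a single library per time point no test across libraries was possible and no p-value is given. The table names a region by row and chromosome, so that no gene or coordinate stands beside a region and the cell types were not checked against marker genes.

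Differences between days 10 and 12 were wider than those of the yardstick. Over the autosomal regions the log2 difference had a median of -0.07 and an SD of 0.92 from day 10 to day 12, with a central 95% from -1.67 to 1.91. From day 9 to day 10 the median was -0.01 and the SD 0.58, with a central 95% from -1.21 to 1.17. The typical region therefore hardly moved, while the spread over regions was larger by a factor of 1.58.

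To find the regions that moved most, a region was called when its level differed 4-fold (a log2 difference of 2) provided that the larger of both values was 50 normalised counts or more. At day 12, 1462 regions had opened, which is 0.670% of all autosomal regions, and 517 had closed (0.237%). The yardstick gave 11 opened (0.00504%) and 40 closed regions (0.0183%). The count from day 10 to day 12 was thus 133 times that of the yardstick for opening and 12.9 times for closing. The first ratio rests on 11 yardstick regions and was smaller with more of them. With a minimum of 20 normalised counts 3892 regions opened against 186 in the yardstick, and without a minimum 4541 against 570. Differences of 8-fold were reached by 71 opened and 13 closed regions at day 12, and by 0 opened and 3 closed regions in the yardstick. The 4-fold threshold does not separate groups, since 483 regions had gains of 1.9 to 2.0 on the log2 scale and 360 gains of 2.0 to 2.1. For losses, 240 regions lay just under the threshold and 166 just past it in windows of the same width.

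With a 2-fold threshold the balance of the directions was different. From day 10 to day 12, 12299 regions opened (5.64%) and 15920 closed (7.30%), where the yardstick had 1095 (0.502%) and 2704 (1.24%). Opened regions made up 73.9% of the 4-fold calls but 43.6% of the 2-fold calls. All 19 autosomes had more opened than closed regions at 4-fold, and all 19 had more closed than opened regions at 2-fold. The balance also rested on the scaling. When the autosomal totals of the libraries were made equal, the median difference rose from -0.07 to 0.07, and opened regions made up 89.1% of the 4-fold and 60.8% of the 2-fold calls. Whether opening or closing prevailed was thus set by the threshold and the scaling.

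Because low regions scatter more, a call relative to the yardstick at the same level was added. Regions were placed in 20 bins by the mean of the libraries compared, and a difference was called when it lay outside the central 99% of the day 9 to day 10 differences in its bin. By construction 1 in every 100 yardstick differences lies outside. From day 10 to day 12, 14962 regions lay above that range (6.86%) and 12760 below it (5.85%). With equal totals the numbers were 22694 and 7786. When the bins were made by the day 8 value the balance was the other way, with 7075 above and 16380 below.

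**Figure D1:**
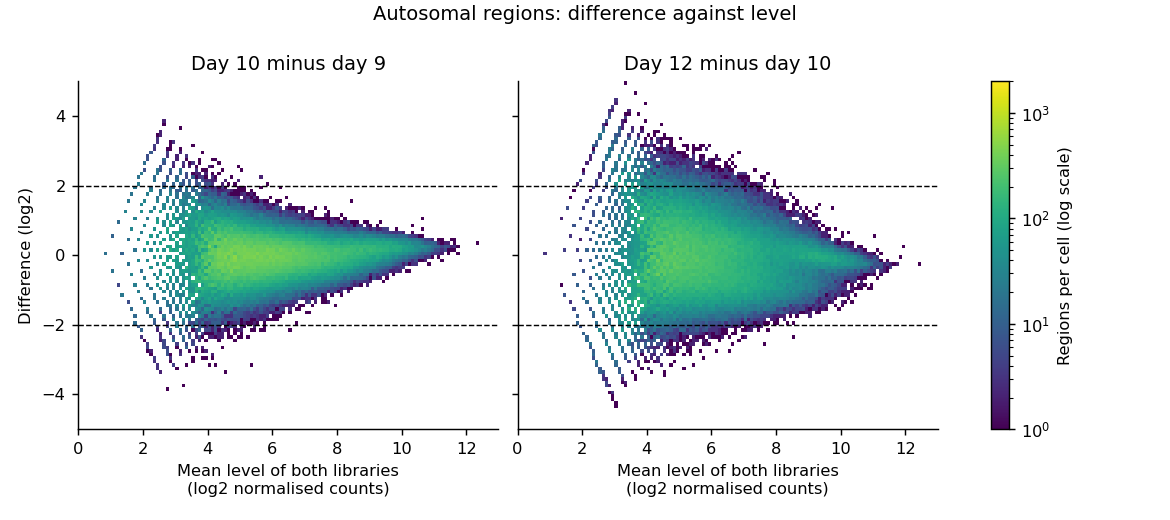
Log2 difference (vertical axis) against the mean log2 level of both libraries (horizontal axis) for all 218231 autosomal regions, from day 9 to day 10 on the left and from day 10 to day 12 on the right. Colour gives the number of regions on a log scale, and dashed lines mark 4-fold differences. The cloud is wider on the right at every level, with an SD of 0.92 against 0.58.

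The widening was present at every level but did not have the same size. Among regions with a mean level of 4 to 5 on the log2 scale, the SD of the differences was 0.95 from day 10 to day 12 and 0.63 in the yardstick. At a level of 6 to 7 it was 0.79 against 0.43, and at 8 to 9 it was 0.59 against 0.31. The ratio of both SDs rose from 1.45 under a level of 4 to 1.95 at a level of 7 to 8, and it was 1.67 at a level of 9 and above. Few strong regions moved far. Of the 8173 regions with a mean level of at least 9, 9 opened and 317 closed 2-fold, and none passed 4-fold.

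Opening and closing differed by the level before the step. Regions were binned by their value at day 8, a library that enters neither difference. Below a day 8 level of 4 on the log2 scale the median difference from day 10 to day 12 was 0.82, whereas it was 0.13 in the yardstick. The median fell to 0.18 at a level of 4 to 5 and -0.09 at 5 to 6. It reached -0.28 at 6 to 7, -0.47 at 7 to 8 and -0.48 at 8 to 9, and was -0.27 at 9 and above. In the yardstick the medians of all bins lay between -0.05 and 0.15. Weak regions thus gained and strong regions lost between days 10 and 12, and no such gradient was seen between days 9 and 10.

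The calls followed the same gradient. In the bin from 4 to 5, 4491 regions (8.85%) opened and 155 (0.305%) closed 2-fold. In the bin from 7 to 8, 294 regions (1.23%) opened and 5115 (21.4%) closed. Closing was most frequent at a day 8 level of 8 to 9, with 3490 of 14387 regions (24.3%), where the yardstick had 38 (0.264%). Of the 4-fold opened regions 670 came from the bin below 4 and 606 from the bin from 4 to 5, and none from a level of 7 or higher. The minimum of 50 normalised counts bears on these shares, since a weak region that lost accessibility could not be called as closed. Without the minimum, 4.71% of the regions below a level of 4 fell 2-fold and 43.0% rose.

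**Figure D2:**
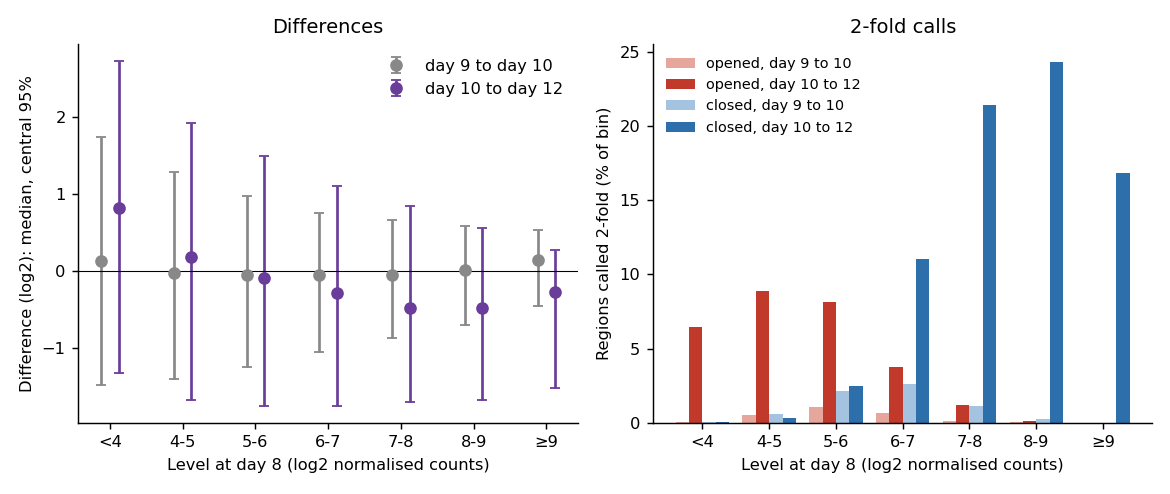
Left: median log2 difference with the central 95% of regions as bars, in bins of the day 8 level in log2 normalised counts, for day 9 to day 10 (grey) and day 10 to day 12 (purple). Right: percent of each bin called as opened (red) or closed (blue) 2-fold, with the yardstick in pale colours. Opening is most frequent in bins of low day 8 level and closing in bins of high day 8 level.

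To see where opened regions came from and where they stood later, their levels were followed through all libraries. The 1462 regions that opened 4-fold had a median log2 level of 4.09 in MEF day 0, and medians of 4.11, 4.06 and 4.07 on days 8, 9 and 10. Then the median was 6.34 on day 12 and 7.32 in iPSC. By these medians they were weak and flat from MEF day 0 to day 10, and the values of days 10 and 12 are those that chose them. Single regions could differ, since 15.0% were above 50 normalised counts in MEF day 0 and 1.78% at day 8. In normalised counts the median region went from 15.8 on day 10 to 80.1 on day 12, and iPSC had 159. The level had not reached its end point at day 12. Of the opened regions 1291 (88.3%) were higher in iPSC than at day 12, where 53.3% of all autosomal regions were, and 697 (47.7%) were so by at least 2-fold. Another 754 (51.6%) lay within 2-fold of their day 12 level, and 11 (0.752%) fell by 2-fold or more. Of all autosomal regions 16.6% were higher in iPSC by at least 2-fold, 59.6% lay within 2-fold and 23.8% fell by 2-fold or more.

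The 517 regions that closed 4-fold ran the opposite course. Their median log2 level was 3.71 in MEF day 0, and 7.10, 6.45 and 6.31 on days 8, 9 and 10. On day 12 it was 4.10, and iPSC had 3.46. By these medians they were high in the intermediates up to day 10 and low in the other libraries. At day 8, 95.6% of them were above 50 normalised counts, as all of them had to be at day 10 by the rule. Their decline had begun earlier, since the median difference from day 8 to day 9 was -0.63, where it was -0.10 over all autosomal regions and -0.03 over opened regions. Only 52 of the 517 (10.1%) were higher at day 9 than at day 8, where 42.5% of all autosomal regions were. In iPSC 390 (75.4%) were lower than at day 12, where 46.7% of all autosomal regions were.

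The day 10 library took part in choosing these regions, so day 9 was set in its place. Of the 1462 opened regions 1074 (73.5%) also lay at least 4-fold above day 9, and 1448 at least 2-fold. Of all autosomal regions 4.01% and 16.1% did. Of the 517 closed regions 384 (74.3%) lay at least 4-fold below day 9 and 514 (99.4%) at least 2-fold, against 2.86% and 19.8% of all autosomal regions. The median log2 difference from day 9 to day 12 was 2.43 for opened and -2.35 for closed regions. These comparisons share the day 12 library, for which there is no second measurement.

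**Figure D3:**
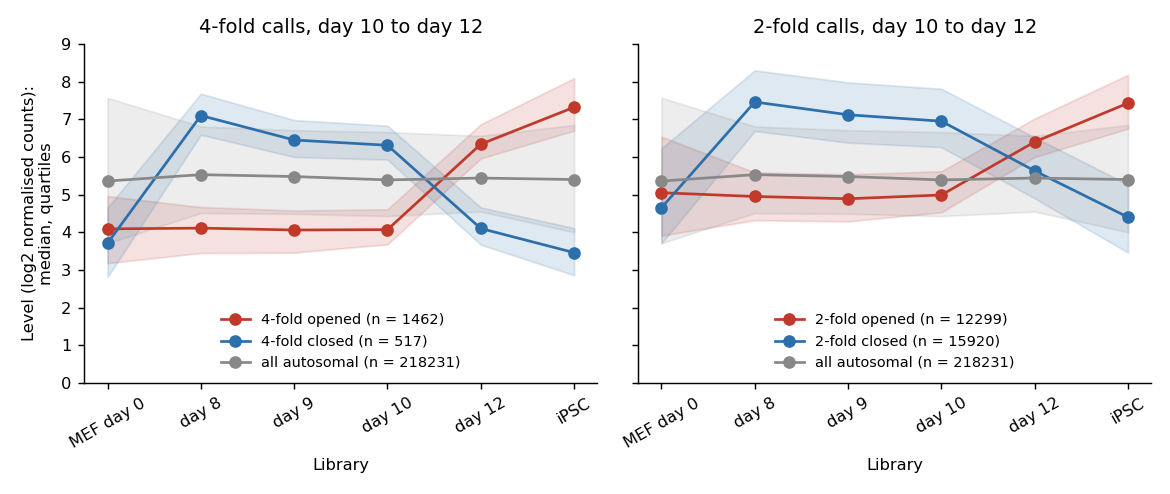
Median log2 normalised counts in the 6 libraries with quartiles as bands, for regions opened (red) or closed (blue) from day 10 to day 12 and for all autosomal regions (grey), with 4-fold calls on the left and 2-fold calls on the right. Days 10 and 12 chose the regions, and the other 4 libraries did not. The medians of opened regions are flat until day 10 and highest in iPSC, and those of closed regions are highest at day 8.

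The larger 2-fold sets had courses of the same shape with a higher starting level in MEF day 0. The 12299 opened regions had a median log2 level of 5.05 in MEF day 0 and of 4.95 and 4.99 on days 8 and 10, followed by 6.40 on day 12 and 7.43 in iPSC. For the 15920 closed regions the median was 4.65 in MEF day 0, then 7.46 and 6.95 on days 8 and 10, 5.63 on day 12 and 4.40 in iPSC. At day 12, 48.7% of the closed regions were still above 50 normalised counts, and in iPSC 16.9% were. Of the opened regions 11055 (89.9%) were higher in iPSC than at day 12, and of the closed regions 13993 (87.9%) were lower. Over all autosomal regions these shares were 53.3% and 46.7%.

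The standing of the changed regions in MEF day 0 and iPSC was then counted, with regions above 50 normalised counts taken as accessible. Of the 1462 opened regions 1200 (82.1%) were accessible in iPSC and not in MEF day 0, where 18.1% of all autosomal regions were. A further 213 (14.6%) were accessible in both, so that they had been open in fibroblasts and were open again in iPSC. That share was below the 26.8% of all autosomal regions that were accessible in both. Only 6 were accessible in MEF day 0 alone and 43 (2.94%) in neither, against 19.5% and 35.6% of all autosomal regions. Of the 517 closed regions 460 (89.0%) were accessible in neither end state, where 35.6% of all autosomal regions were. In MEF day 0 alone 52 (10.1%) were accessible, where 19.5% of all autosomal regions were. Accessible in iPSC alone were 5 closed regions, and none was accessible in both, against 18.1% and 26.8% of all autosomal regions. By the rule opened regions were high at day 12, where 100.0% were above 50 normalised counts, against 43.8% of all autosomal regions. Of the closed regions 5.61% were above 50 on day 12. The background was not matched by day 12 level, so the iPSC shares in part follow from the choice of regions.

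Both groups depended on the cutoff for accessible regions. With a cutoff of 20 normalised counts, 57.2% of the opened regions were accessible in iPSC alone and 42.8% in both end states, and 57.6% of the closed regions were in neither. With the 2-fold threshold 59.9% of the opened regions were accessible in iPSC alone and 36.1% in both, while 9398 of the 15920 closed regions were in neither and 24.1% in MEF day 0 alone. The MEF day 0 level of a region rests on few reads, with 1 read worth about 2.01 normalised counts.

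**Figure D4:**
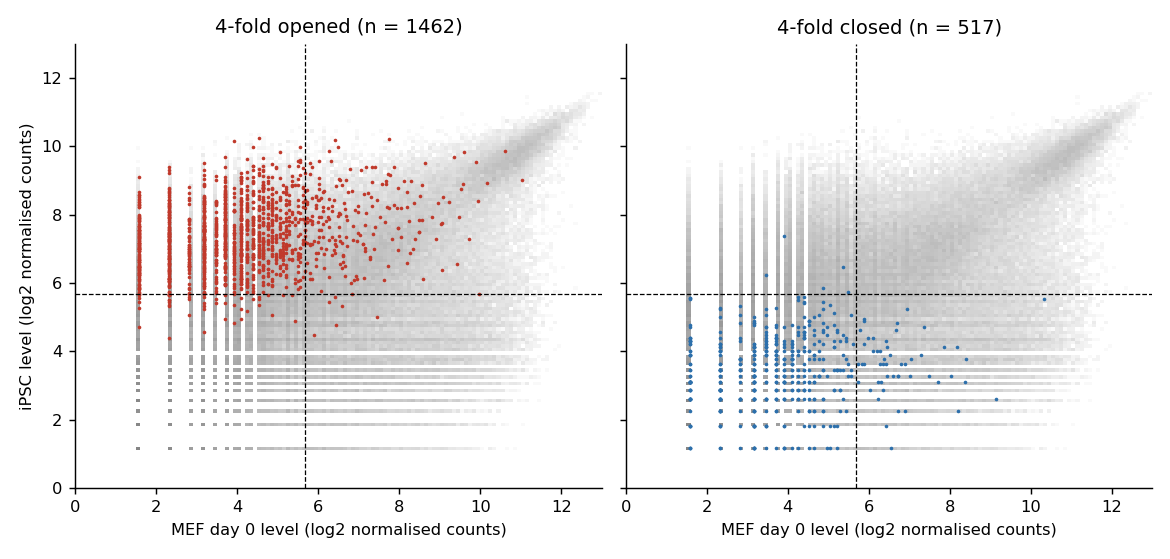
Level in iPSC (vertical axis) against level in MEF day 0 (horizontal axis), both in log2 normalised counts, for the 1462 regions opened 4-fold (red, left) and the 517 closed 4-fold (blue, right) over the density of all autosomal regions (grey). Dashed lines mark 50 normalised counts. Opened regions lie mostly at the upper left and closed regions at the lower left of the dashed lines.

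To look at the step without choosing regions by their change, all autosomal regions were sorted into 8 classes by whether they were accessible in each of the libraries MEF day 0, day 8 and iPSC. None of these libraries enters the day 10 to day 12 difference or the yardstick. The 24536 regions accessible only in iPSC had a median log2 difference of 1.04 ± 0.76 (SD over regions) from day 10 to day 12, and 91.8% of them rose. In the yardstick their median was 0.19 ± 0.67 and 62.3% rose. The class, 11.2% of all autosomal regions, held 1188 of the 1462 regions opened 4-fold (81.3%) and 6396 of the 12299 opened 2-fold (52.0%). These are 4.84% and 26.1% of the class, and 0 and 10 of its regions closed.

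Regions accessible in MEF day 0 and in iPSC but not at day 8 had closed during early reprogramming and were open at its end. These 13602 regions rose as well, with a median difference of 0.66 ± 0.63 and 87.2% above 0, against 0.11 ± 0.54 and 58.6% in the yardstick. They were 6.23% of all autosomal regions and held 2676 of the 2-fold opened regions (21.8%). Regions of fibroblasts that are open again in iPSC thus gained accessibility from day 10 to day 12.

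The 26763 regions accessible at day 8 alone had a median difference of -0.95 ± 0.57, and 4.66% of them rose. In the yardstick the median was -0.26 ± 0.46 and 27.6% rose. They were 12.3% of all autosomal regions and held 442 of the 517 regions closed 4-fold (85.5%) and 8977 of the 15920 closed 2-fold (56.4%), the latter being 33.5% of the class. Regions accessible in MEF day 0 and at day 8 but not in iPSC, 14839 in number, had a median of -0.70 with 7.76% rising, whereas the yardstick had a median of -0.07 and 43.4% rising. In this class 3525 regions (23.8%) closed 2-fold.

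The other 4 classes had median differences near 0. Those accessible in MEF day 0 alone and in none were weak on day 10, with median log2 levels of 4.67 and 4.37, so weak regions did not all gain. The 44925 regions accessible in all 3 libraries had a median difference of 0.04 and the 27790 accessible in MEF day 0 alone had -0.04. The latter had a median log2 level of 4.67 on day 10, which is close to the 4.53 of the regions accessible only in iPSC. Those accessible in iPSC and at day 8 but not in MEF day 0 had -0.14, and those accessible in none had -0.17. Of these the classes accessible in MEF day 0 alone, in iPSC and at day 8, and in none changed sign with equal totals, to 0.09, 0.07 and 0.03. The directions of the 4 classes described before were the same under equal totals and quantile normalisation.

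**Figure D5:**
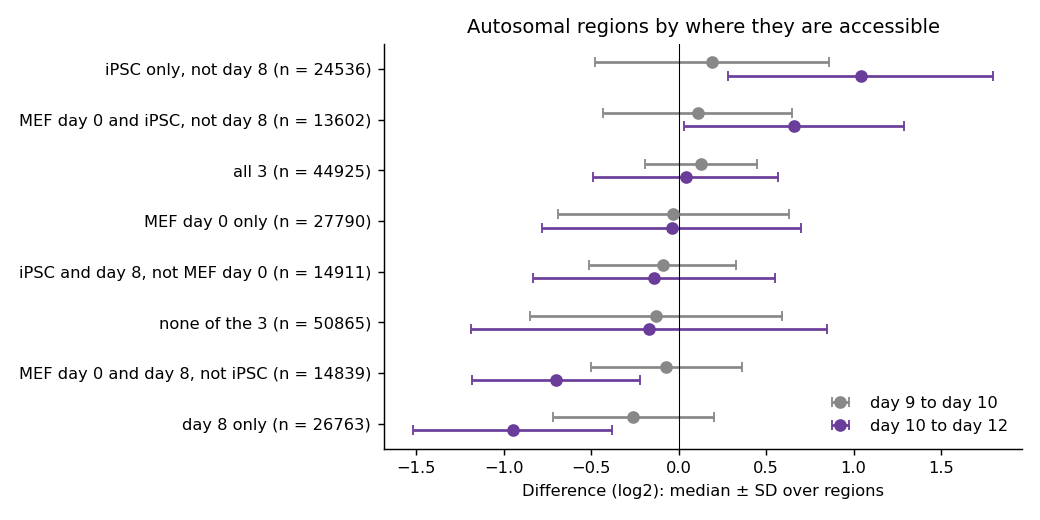
Median log2 difference with the SD over regions as bars, for day 9 to day 10 (grey) and day 10 to day 12 (purple), in 8 classes of autosomal regions named by the libraries (MEF day 0, day 8, iPSC) in which they were above 50 normalised counts. From day 10 to day 12 the median was 1.04 for regions accessible in iPSC only and -0.95 for regions accessible at day 8 only.

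By medians, the 4 classes that moved most had gone between 29.6% and 49.2% of the way from day 10 to iPSC by day 12, and the regions accessible in MEF day 0 alone 1.84%. The iPSC library both defined the classes and served as the end point, so the distance was in part set by the choice of regions. Regions accessible only in iPSC had median log2 levels of 4.53 at day 10, 5.50 at day 12 and 6.49 in iPSC, which is 49.2% of the distance on the log2 scale. Regions that reopened had 5.06, 5.71 and 6.47, or 45.9%. Regions accessible at day 8 alone had 6.04, 5.21 and 4.11, or 43.0%, and those accessible in MEF day 0 and at day 8 had 6.72, 6.08 and 4.56, or 29.6%. The scale mattered. With mean normalised counts in place of median log2 values, opening classes had gone 29.0% and 28.1% of the way, and closing classes 62.2% and 49.2%, in the same order.

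Inside the iPSC-only class the change grew with the level that the region had in iPSC. Regions of 50 to 100 normalised counts in iPSC had a median log2 difference of 0.89 from day 10 to day 12. It was 1.11 at 100 to 200, 1.37 at 200 to 400 and 1.66 above 400 normalised counts. The share opened 2-fold was 10.5%, 37.3%, 70.7% and 91.5% in the same order, and the share opened 4-fold was 1.92%, 6.58%, 13.2% and 22.5%. Of the 481 strongest, 440 opened 2-fold. The yardstick had the same order at a smaller size, with medians of 0.13, 0.23, 0.41 and 0.61. Regions of the class were at or below 50 normalised counts at day 8. A higher iPSC level thus called for a larger rise after day 8, so the order was in part set by the class.

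For regions accessible at day 8 alone, the loss grew with the level at day 8. The median difference was -0.77 at 50 to 100 normalised counts, -1.01 at 100 to 200, -1.21 at 200 to 400 and -1.34 above 400. The share closed 2-fold was 14.6%, 46.2%, 70.9% and 88.4%. In the yardstick the medians lay between -0.27 and -0.24, with no order by level. Regions of the class were at or below 50 normalised counts in iPSC. A higher day 8 level thus called for a larger loss up to iPSC, so the order was in part set by the class. All of the 1006 strongest regions fell from day 10 to day 12, though their median log2 level of 7.03 at day 12 was still well above 50 normalised counts. Low regions pass the minimum less easily, which bears on the shares but not on the medians.

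Single regions were then taken by rule, and their folds in normalised counts carry 95% exact intervals, which cover counting error only. These regions were chosen for the size of their change, so their folds are descriptions. Reads are given in the order MEF day 0, days 8, 9, 10 and 12, and iPSC. They are not scaled, and the size factors ran from 0.498 in MEF day 0 to 1.4 at day 9. Reads of different libraries therefore do not compare directly. The largest gain was that of row 28294 on chromosome 11, with 4, 19, 36, 1, 62 and 79 reads. Its fold from day 10 to day 12 was 70.7 (12.2 to 2835). Its lowest value of all libraries was that of day 10, and day 9 already had 36 reads. Row 28985 on chromosome 11 held 19, 5, 9, 2, 71 and 82 reads, a 40.5-fold gain (10.8 to 341). Row 57371 on chromosome 13 held 1, 8, 14, 3, 60 and 178 reads, a 22.8-fold gain (7.43 to 114). Both were low on days 8 to 10 and high in iPSC, but the 19 reads of row 28985 in MEF day 0 are 38.2 normalised counts, against 63.9 on day 12. All 5 largest gains had 1 to 4 reads at day 10.

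The strongest opened regions had rising values already before day 12. Row 105743 on chromosome 19 held 11, 59, 64, 150, 604 and 971 reads, a gain of 4.59-fold from day 10 to day 12 (3.83 to 5.52). Row 206729 on chromosome 9 held 44, 41, 66, 125, 546 and 811 reads, a 4.98-fold gain (4.09 to 6.10). In both, day 10 was more than 2-fold above day 9 on the log2 scale, by 1.36 and 1.05. The largest iPSC minus MEF difference among opened regions was in row 89394 on chromosome 17, with 1, 8, 6, 20, 114 and 434 reads and a 6.50-fold gain (4.02 to 11.0).

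Opened regions with a high level in fibroblasts were much lower in the intermediates. Row 6818 on chromosome 1 held 1048, 100, 59, 68, 262 and 414 reads, a 4.39-fold gain from day 10 to day 12 (3.35 to 5.82). Row 165478 on chromosome 5 held 774, 56, 75, 85, 348 and 741 reads, a 4.67-fold gain (3.67 to 5.99). In both rows, day 12 was below MEF day 0 and above days 8, 9 and 10. Row 165478 had 1554 normalised counts in MEF day 0 and 929 in iPSC. Some opened regions had their highest level at day 12, and 171 of the 1462 (11.7%) were lower in iPSC than at day 12. Row 163325 on chromosome 5 held 1, 10, 17, 26, 146 and 34 reads, and row 21053 on chromosome 10 held 1, 26, 16, 17, 89 and 20 reads.

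Among closed regions the largest loss was that of row 203397 on chromosome 8, with 8, 177, 110, 97, 7 and 6 reads and a 12.2-fold fall (5.68 to 31.0). Row 67224 on chromosome 14 held 5, 118, 98, 140, 12 and 11 reads, a 10.2-fold fall (5.68 to 20.3). Both were low at the start and at the end of the series. The strongest at day 10 was row 50285 on chromosome 12, with 7, 1445, 1136, 1062, 184 and 132 reads and a 5.06-fold fall (4.33 to 5.96). Its level was 166 normalised counts on day 12 and 165 in iPSC, which was the highest iPSC level of all closed regions. Row 75250 on chromosome 15 held 1, 770, 687, 613, 94 and 36 reads, a 5.72-fold fall (4.60 to 7.19). Among the regions that were lowest in MEF day 0 was row 16466 on chromosome 10, with 1, 163, 98, 92, 15 and 1 reads and a log2 difference of -2.34. Its reads were at the lowest value of the library both in MEF day 0 and in iPSC.

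Other closed regions had been open in fibroblasts or were open again at the end. Row 73606 on chromosome 15 held 640, 143, 106, 99, 19 and 36 reads, a 4.57-fold fall from day 10 to day 12 (2.78 to 7.91), after a decline that had begun between MEF day 0 and day 8. Row 7535 on chromosome 1 held 5, 73, 98, 103, 21 and 59 reads with a log2 difference of -2.05, and was thus lower at day 12 than in both neighbouring libraries of the series.

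Reads behind the calls were few in the lower library. Opened regions had a median of 20 reads at day 10 and 89 at day 12, and closed regions 99 and 18. The counting interval of the fold lay wholly beyond 4-fold in 202 of the opened and 36 of the closed regions. At day 12, 479 of the opened regions were above 100 normalised counts and 95 above 200.

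The changes were spread over all autosomes. The share of regions opened 4-fold ranged from 0.513% on chromosome 14 to 0.860% on chromosome 13, with a median of 0.637% over the 19 autosomes. The share closed 4-fold ranged from 0.129% on chromosome 19 to 0.309% on chromosome 8. At 2-fold the ranges were 4.95% to 6.16% for opening and 6.43% to 8.31% for closing. The median difference per autosome lay between -0.12 and -0.03. Chromosomes of 1 library are not replicates, and no test was made between them.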

How the data were processed

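The authors ran the ENCODE pipeline for ATAC-seq on GRCm38/mm10, joined alignments and peaks into a count matrix with DiffBind (3.8), divided the counts by DESeq2 (1.21.22) size factors and deposited log2 values, not split by allele, for 6 libraries. Versions of both tools are given in the submitters' processing notes. The pseudocount of the deposited log2 values is 1 normalised count, so fold changes of low regions are understated on this scale.

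To recover reads, the pseudocount was undone and each value divided by the lowest of its library, and 100.0% of values came out whole within 0.001. The lowest value is 1 read in every library and may stand for 0 or 1. Groups followed the time point labels, with no replicates, so differences are described without a test. Exact (Clopper-Pearson) 95% intervals of folds cover counting error only, and reads amplified without molecular identifiers need not be independent molecules. The calling procedure was run on simulated libraries with planted 8-fold changes and counting error only. These held no other variation between libraries, so the run does not measure how often the calls here are wrong.

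Named regions were autosomal. They were the 5 largest gains and the 5 largest losses. Among 4-fold opened regions they were the 3 highest at day 12 and in MEF day 0, the 3 with the largest iPSC minus MEF difference and the 3 with the largest fall to iPSC. Among 4-fold closed regions they were the 3 highest at day 10, in MEF day 0 and in iPSC, and the 3 lowest in MEF day 0. Examples of each are printed. The comparison, the thresholds and the named regions were chosen with earlier results of these data known, and the 8 classes after the values were seen. Alternatives were other minimums, pseudocounts, scalings, earlier libraries, bins and cutoffs, and thinning of reads to the shallowest library. Python 3.11.15, numpy 2.4.6, pandas 2.3.3, scipy 1.17.1 and matplotlib 3.10.9 were used.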

Additional observations from a re-analysis of the deposited data

How the results depend on the processing

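Of 173 alternative values, 45 moved little, 123 moved more and 5 changed direction; the main limit is that each time point has 1 library. No paired analysis was possible because each time point has 1 library. The median day 10 to day 12 difference was -0.07 as deposited, 0.07 with equal autosomal totals and -0.03 after quantile normalisation. In every alternative with a yardstick of its own, 4-fold opened and closed regions were more numerous from day 10 to day 12 than in the yardstick. The SD ratio of 1.58 was 1.51 with reads thinned to the shallowest library. Counts below are given as opened and closed. Low counts were most frequent in the end states, where 5.87% of autosomal regions in MEF day 0 and 2.17% in iPSC were at the lowest value. At day 12 the share was 0.0999%, although that library had fewer reads in regions than MEF day 0 (24464545 against 27121103). The cause of the moves was not tested, except where fewer or more regions pass a minimum.

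With a minimum of 20 normalised counts, 3892 and 1592 regions passed 4-fold (71.0% opened) and 26233 and 26109 passed 2-fold (50.1% opened, a change of direction), with yardsticks of 186 and 267, and 4899 and 7538. With a minimum of 100 the counts were 479 and 168, and 4735 and 9589 (33.1% opened), with yardsticks of 3 and 5, and 239 and 757. Without a minimum they were 4541 and 2173 (67.6%), and 29258 and 29842 (49.5%), with yardsticks of 570 and 488, and 8443 and 10191. A pseudocount of 10 gave 336 and 82 at 4-fold (80.4%), with yardsticks of 0 and 3, and of 473 and 1430 at 2-fold. Thinning moved the 4-fold yardstick to 19 and 68.

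With day 9 as the earlier library, 3923 and 3031 regions passed 4-fold (56.4%), 25886 closed 2-fold, and 38.2% of the 2-fold calls were opened. With the mean of days 9 and 10 the 4-fold counts were 2436 and 945, and 41.6% of the 2-fold calls were opened. Bins by the day 8 value gave 7075 opened and 16380 closed regions beyond the yardstick's range, which turns the balance of 14962 and 12760, and a wider central range gave 8130 and 6550.

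Equal autosomal totals gave 2423 and 296 regions at 4-fold (89.1%), a 2-fold share opened of 60.8% (a change of direction), and 22694 and 7786 beyond the range. Opened regions were then accessible in iPSC and not MEF day 0 in 86.3% and in both in 7.06%, and closed regions in neither in 95.6% and in MEF day 0 and not iPSC in 3.72%. Median levels in MEF day 0 and iPSC were 3.02 and 7.08 for opened and 2.66 and 3.31 for closed regions. Higher in iPSC than on day 12 were 81.2% of the opened, and lower 80.7% of the closed. Class medians were 1.12 (iPSC), 0.76 (MEF day 0 and iPSC), -0.79 (day 8) and -0.52 (MEF day 0 and day 8). Those of MEF day 0 alone, none of the 3, and iPSC and day 8 changed sign to 0.09, 0.03 and 0.07.

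Quantile normalisation gave 3663 and 1916 regions at 4-fold (65.7%), a 2-fold share opened of 49.0%, a 4-fold yardstick of 44 and 127, and 2563 opened 2-fold in the yardstick. Opened regions were accessible in iPSC and not MEF day 0 in 77.3% and in both in 18.6%, and closed regions in neither in 85.4%. The median levels were 4.68 for opened regions in MEF day 0, and 4.42 and 3.97 for closed regions in MEF day 0 and iPSC. Higher in iPSC were 83.7% of the opened and lower 58.2% of the closed regions. Class medians were 1.21, 0.75 and -1.11 in the first 3 classes.

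With regions above 20 normalised counts taken as accessible, the 4 shares in the order used above were 57.2%, 42.8%, 57.6% and 24.4%, and with 100 they were 69.8%, 6.29%, 95.4% and 4.45%. The 4 class medians were 1.21, 0.80, -0.87 and -0.62 with 20, and 0.97, 0.58, -1.01 and -0.76 with 100. The alternatives for the classes were chosen after seeing the data. With the 2-fold threshold the shares were 59.9%, 36.1%, 59.0% and 24.1%, the median levels in MEF day 0 and iPSC were 5.05 and 7.43 for opened and 4.65 and 4.40 for closed regions, and 87.9% of the closed regions were lower in iPSC. The ratio of the highest to the lowest autosome for closed regions was 2.40 at 4-fold and 1.29 at 2-fold.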

Other observations

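Regions next to each other in the table had a weak tendency to move alike. The Pearson r between the day 10 to day 12 differences of neighbouring rows of the same chromosome was 0.165 over 218212 pairs, against 0.0125 for rows 50 apart. From day 9 to day 10 it was 0.0788 and 0.0163. The table gives no coordinates, so the distance between neighbouring rows is not known, and neighbours share a library. Of the 12299 regions opened 2-fold, 2519 (20.5%) had another opened region in a neighbouring row, where 10.7% of all autosomal regions had one. Of the 15920 closed 2-fold, 4217 (26.5%) had a closed neighbour, against 13.7%. Among the 4-fold calls 72 of 1462 opened regions (4.92%, against 1.33%) and 4 of 517 closed regions (0.774%, against 0.473%) had such a neighbour.

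Across the 218231 autosomal regions, which are not independent replicates, the day 10 to day 12 difference had a Pearson r of 0.310 (Spearman rho 0.302) with the iPSC minus MEF day 0 difference, with which it shares no library. The day 9 to day 10 difference had 0.0618 (0.0353). With the day 8 level the r was -0.400 from day 10 to day 12 and -0.0359 from day 9 to day 10. With the MEF day 0 level the r of the day 10 to day 12 difference was 0.0214 (0.0602).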
